A study of Caenorhabditis elegans with 30 samples.

Results

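The genes described here encode the hedgehog-related and patched-related proteins of the nematode *Caenorhabditis elegans*. They were chosen by name, as every probe set that the array annotation assigned to 1 gene with a symbol starting with wrt- (warthog), grd- (groundhog), grl- (ground-like), ptr- (patched-related) or ptc- (patched), or equal to hog-1 or qua-1 (quahog). This gave 95 of the 22625 probe sets on the array, for 80 genes. The ligand-like families accounted for 60 probe sets of 54 genes, namely 10 wrt, 12 grd and 30 grl genes with hog-1 and qua-1. The receptor-like families accounted for 35 probe sets of 26 genes, namely 24 ptr and 2 ptc genes. Of 88 genes with such names in the RefSeq annotation WBcel235, 8 had no probe set of their own and were not analysed here (grd-4, grd-6, grd-13, grd-15, grd-17, grl-26, grl-32 and ptc-2). Names, and not values, selected them.

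In flies and vertebrates, Hedgehog is a secreted ligand that binds Patched, a membrane protein with a sterol-sensing domain, and thereby releases Smoothened to act on Gli transcription factors. *C. elegans* has neither a true Hedgehog nor a Smoothened, but it has a large set of secreted proteins that share the hedgehog self-processing module or short cysteine-rich domains linked to it, and a large set of Patched-like membrane proteins. Many of these genes are transcribed in the epidermis, many cycle with the larval molts, and several, including qua-1, ptc-3 and a number of ptr genes, are required for molting or for making the cuticle.

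The methods describe hypochlorite synchronization and growth to young adults for wild type worms, and name no such step for the mutants. Adult worms of all samples were sorted so that L4 larvae and younger worms were left out. RNA of these whole worms was hybridized to 30 Affymetrix *C. elegans* arrays, with 10 groups of 3. On isotonic plates (51 mM NaCl) these were the mutants dpy-9(e12), dpy-10(e128), osm-11(n1604), osm-7(n1515) and osm-8(n1518) and the wild type strain N2. On hypertonic plates (200 mM NaCl) they were N2 worms exposed for 15 min, 1 h, 6 h or 1 generation. Each mutant is 1 allele of 1 strain: osm-7 and osm-11 encode related secreted proteins, osm-8 encodes a mucin-like secreted protein, and dpy-9 and dpy-10 encode cuticle collagens whose loss makes worms short and stout. All 5 mutants resist hypertonic stress, and the study asked which genes they mis-express on isotonic plates and which genes N2 worms regulate on hypertonic plates. The same 3 N2 isotonic arrays served as the reference of all 9 comparisons, so the comparisons are not independent. Each group had only 3 arrays. The p-values rest on the spread of arrays within groups, pooled over all groups fitted together and moderated across probe sets, and not on the 3 arrays of 1 group alone.

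The deposited values are GC-RMA intensities, of which the log2 is used below. Median intensities of the arrays lay between 9.97 and 14.5, with all dpy arrays at 13.9 or more and all others at 12.3 or less, and the log2 values of replicate arrays had correlations of 0.99 to 0.998. The 13617 probe sets with an intensity of at least 10 on at least 3 arrays were tested (60.4% of those that are no controls). Among the members 51 probe sets of 42 genes passed, 27 of 26 ligand-like genes and 24 of 16 receptor-like genes. Of these 51 probe sets, 21 (41.2%) passed only through arrays of osm-8, dpy-9 or dpy-10, compared with 10.1% of all tested probe sets. Such members could not pass without being high in these strains, so counts over the tested members are descriptions of them and not of the 95. A call required that limma gave an adjusted p no higher than 0.01 and that the change was 3-fold or larger, while a probe set that met the p alone is said to have passed the test. Where a gene had several tested probe sets, values are those of the probe set with the highest mean unless another is named.

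More members were at or above an intensity of 10 in the dpy mutants and osm-8 than in the other strains. Counting genes that reached it on all 3 arrays of a group, 24 of the 54 ligand-like genes did so in dpy-9, 23 in dpy-10, 21 in osm-8, 15 in osm-7 and 13 in osm-11, against 13 in N2 on isotonic plates. Among the 26 receptor-like genes the numbers were 16 in dpy-9, 16 in dpy-10, 9 in osm-8, 8 in osm-7 and 8 in osm-11, against 7 in N2. In N2 worms on hypertonic plates, between 12 and 14 ligand-like and between 7 and 8 receptor-like genes did so. Both families thus had more genes above this level in the dpy mutants than in N2, and osm-8 had more among the ligand-like genes. On single osm-8 arrays 9, 14 and 13 receptor-like genes reached it, against 8, 8 and 7 in N2 on isotonic plates. The osm-8 count of 9 receptor-like genes thus rests on replicate 1. Of all 17118 genes that the annotation pairs with a probe set, 50.9% did so in dpy-9, 51.3% in dpy-10, 49.0% in osm-8, 47.8% in osm-7 and 48.0% in osm-11, against 47.0% in N2.

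**Figure D1:**
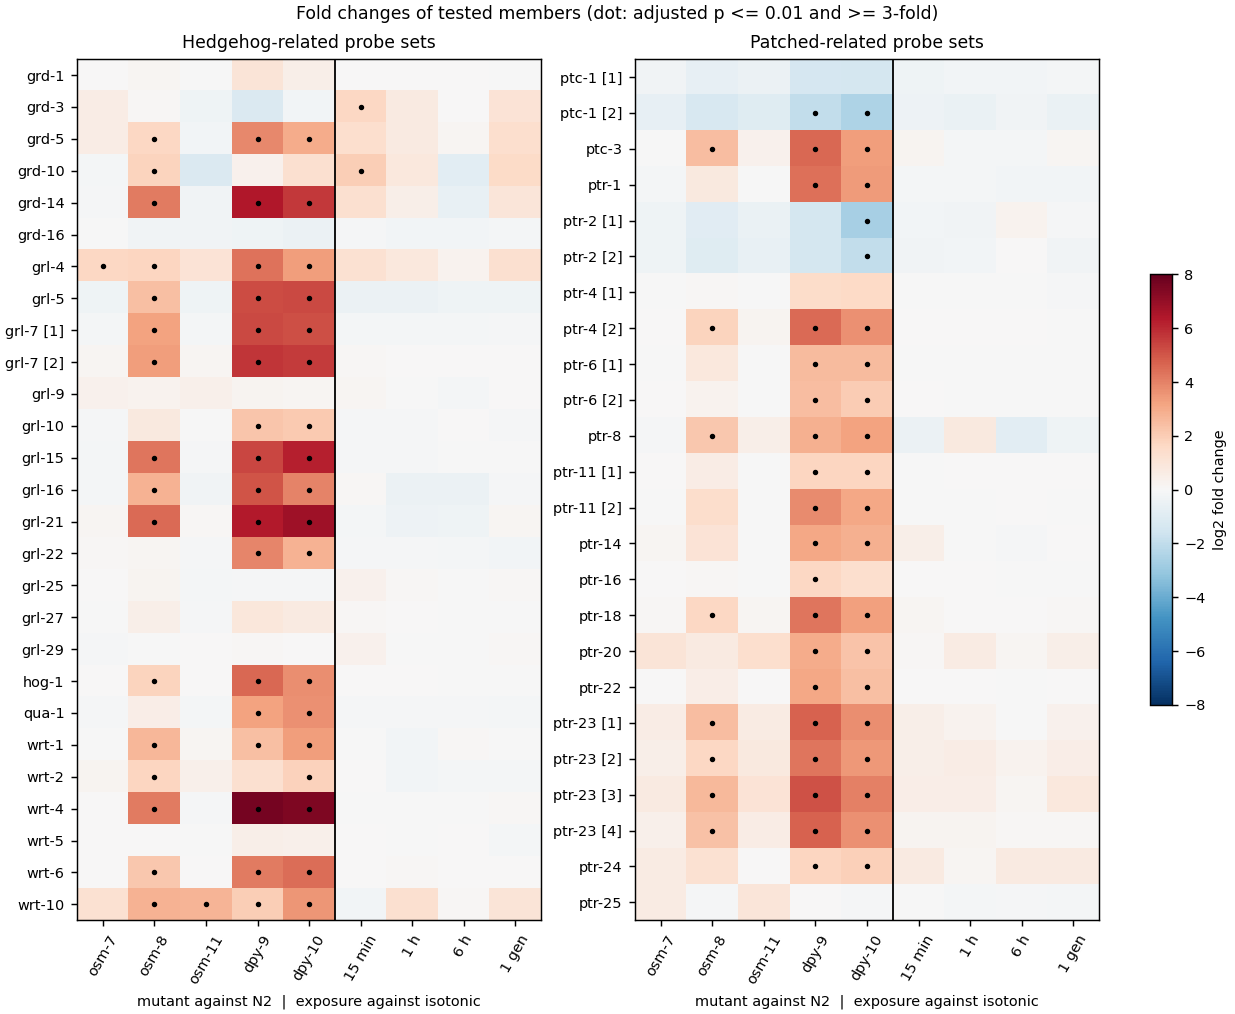
Log2 fold changes (colour) of the 27 ligand-like (left) and 24 receptor-like (right) probe sets that were tested, in rows, for the 5 mutants against N2 and for the 4 exposures of N2 against isotonic plates, in columns. Numbers in brackets tell apart probe sets of 1 gene, and dots mark calls; the dots stand mostly in the columns of osm-8, dpy-9 and dpy-10, and the N2 series holds 2.

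Members were called almost only in 3 of the 5 mutants, and nearly always as higher. In dpy-9, 17 ligand-like probe sets (16 genes) and 18 receptor-like probe sets (13 genes) were called higher and 1 receptor-like probe set lower, where 16.3% of all tested probe sets were called higher and 8.12% lower. In dpy-10, 18 ligand-like probe sets (17 genes) and 17 receptor-like probe sets (12 genes) were called higher and 3 receptor-like probe sets lower, against 18.4% higher and 10.4% lower over all tested. In osm-8, 16 ligand-like probe sets (15 genes) and 8 receptor-like probe sets (5 genes) were called higher and none lower, against 8.06% and 0.903%. In osm-7 and osm-11 a single ligand-like gene each was called higher (grl-4 and wrt-10) and no receptor-like one, with 1.88% and 3.24% of all tested probe sets called higher in these strains and 0.272% and 0.22% lower. The median log2 fold change of the tested ligand-like probe sets was 3.19 in dpy-9, 3.33 in dpy-10 and 1.74 in osm-8, and that of the receptor-like ones 2.90, 2.48 and 0.82, whereas over all tested probe sets it was -0.23, -0.22 and -0.16. In osm-7 and osm-11 the medians of both families lay between -0.07 and 0.01.

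The filter and the array background weigh on these counts. With the filter set on the 21 arrays of N2, osm-7 and osm-11 alone, a choice made after seeing the data, 17 ligand-like and 13 receptor-like probe sets remained among 12244. Of the 17, 8 were called higher in dpy-9, 9 in dpy-10 and 10 in osm-8, and of the 13, 8, 8 and 6, where 12.8%, 15.1% and 7.46% of all probe sets that passed this filter were. On N2 isotonic arrays 33 of the 51 tested members averaged under a log2 intensity of 4, near the background. Of probe sets at that N2 level, 27 of the 33 members were called higher in dpy-9, 26 in dpy-10 and 15 in osm-8, against 30.4%, 32.1% and 12.5% of all such probe sets. The 21 members that passed the first filter only through osm-8, dpy-9 or dpy-10 arrays are all among these 33. They had to be high there, so this contrast is in part fixed by the filter. With 32 added to every intensity before the log2, which shrinks changes of dim probe sets, 22 members were called in dpy-9, 20 in dpy-10 and 7 in osm-8, where 11.9%, 15.1% and 4.43% of all tested probe sets were.

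Among the warthog genes, wrt-4 had the widest separation of any member. Its log2 intensity was 6.56, 6.74 and 6.78 on osm-8 arrays, 10.31, 9.94 and 10.26 on dpy-9 arrays and 9.58, 9.82 and 10.55 on dpy-10 arrays, against 2.49, 2.54 and 2.51 in N2 on isotonic plates. The arrays of osm-7 (2.59, 2.49 and 2.49) and osm-11 (2.45, 2.45 and 2.40) stayed at the N2 level. Thus 3 strains lay far above N2 with no overlap, and wrt-4 rose by a log2 fold change of 4.18 for osm-8, 7.66 for dpy-9 and 7.47 for dpy-10 (SE 0.19, adjusted p = 3.6e-11, 7.99e-15 and 1.51e-14). The genes wrt-1 and wrt-6, which like wrt-4 encode warthog proteins, rose in the same strains. For wrt-6 the log2 fold change was 2.19 for osm-8, 4.18 for dpy-9 and 4.48 for dpy-10, whereas for wrt-1 it was 2.64, 2.42 and 3.36. In both genes the osm-7 and osm-11 arrays averaged within 0.18 of N2 on the log2 scale.

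The warthog gene wrt-2 was well above the background in all groups and changed less. It gave 7.15, 7.12 and 6.49 on osm-8 arrays, 6.09, 6.24 and 6.99 on dpy-9 arrays and 6.996, 7.16 and 6.84 on dpy-10 arrays, compared with 4.62, 5.10 and 5.82 in N2, whose arrays spread over more than 1 log2 unit. It was called in osm-8 (1.74 ± 0.30, log2 fold change ± SE, adjusted p = 0.0002) and dpy-10 (1.82 ± 0.30, adjusted p = 4.7e-05) and passed the test in dpy-9 at 1.26. Without N2 isotonic replicate 1, the lowest of the 3, the changes were 1.46 in osm-8 and 1.54 in dpy-10, under 3-fold. The calls of wrt-2 thus rest on that array, while the test was passed without it. Set against osm-7 and osm-11, wrt-2 in osm-8 was at 1.42, and without osm-8 replicate 3 it crossed 3-fold (1.63).

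The warthog gene wrt-10 was the exception in the osm-11 strain. Its values were 3.495, 4.76 and 5.36 on osm-7 arrays, 5.47, 6.15 and 6.58 on osm-8 arrays, 5.93, 5.24 and 6.999 on osm-11 arrays, 4.52, 5.55 and 5.75 on dpy-9 arrays and 6.87, 6.73 and 6.89 on dpy-10 arrays, against 3.21, 3.49 and 3.23 in N2. Every mutant array lay above all N2 arrays, and the rise was called in osm-8 (2.76), osm-11 (2.75 ± 0.46, adjusted p = 0.000441), dpy-9 (1.96) and dpy-10 (3.52) but not in osm-7 (1.23, adjusted p = 0.0888). With 32 added to the intensities the osm-11 value was 1.27, under 3-fold. In the annotation wrt-10 is a neighbour of wrt-1, with at most 1 protein-coding gene between them, and wrt-1 averaged 0.18 above N2 in osm-11 (adjusted p = 0.719). The remaining tested warthog gene, wrt-5, reached 0.47 in dpy-9 and 0.42 in dpy-10 (adjusted p = 0.022 and 0.0347) and was called nowhere.

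**Figure D2:**
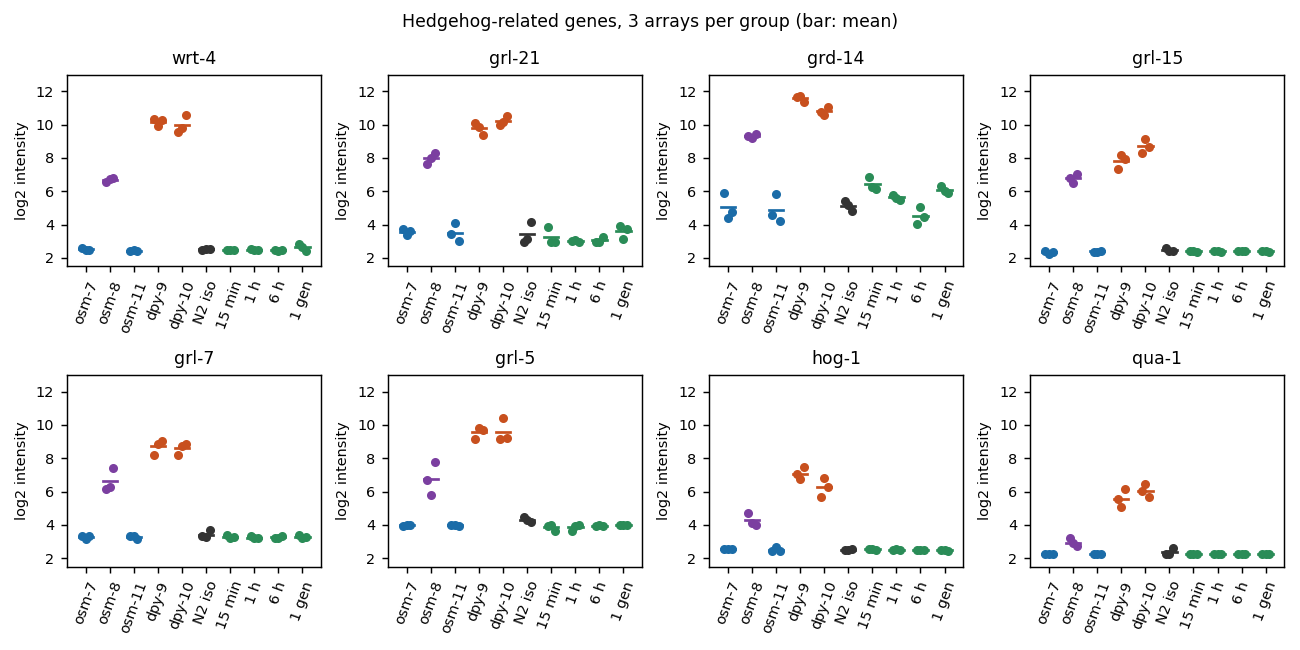
Log2 intensity (y axis) of 8 ligand-like genes on each of the 30 arrays, by group (x axis), with points for arrays and bars for group means. The osm-8, dpy-9 and dpy-10 points of wrt-4, grl-21, grd-14, grl-15, grl-7, grl-5 and hog-1 lie above all N2 isotonic points, and osm-7 and osm-11 stay near N2.

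The ground-like genes grl-21, grl-15, grl-7 and grl-5 rose in osm-8 and more so by value in both dpy mutants, with dpy-10 above dpy-9 in grl-21 and grl-15 and the 2 close together in grl-7 and grl-5. The secreted protein GRL-21 has been linked, with the patched-related protein PTR-24, to fat metabolism. For grl-21 the values were 7.62, 8.02 and 8.31 on osm-8 arrays, 10.11, 9.85 and 9.36 on dpy-9 arrays and 9.96, 10.14 and 10.49 on dpy-10 arrays, against 2.98, 3.11 and 4.17 in N2. The rise was 4.56 for osm-8, 6.35 for dpy-9 and 6.78 for dpy-10 (log2, SE 0.32, adjusted p = 7.74e-09, 4.66e-11 and 2.08e-11), and the 6 arrays of osm-7 and osm-11 lay between 3.0 and 4.08. For grl-15 they were 6.80, 6.48 and 7.02 on osm-8 arrays, 7.34, 8.15 and 7.94 on dpy-9 arrays and 8.31, 9.13 and 8.66 on dpy-10 arrays, against 2.57, 2.42 and 2.42 in N2. Its log2 fold changes were 4.30, 5.34 and 6.23 (SE 0.21, adjusted p = 1.25e-10, 2.69e-12 and 4.58e-13). In neither gene did an array of these 3 strains come within 3 log2 units of an N2 isotonic array.

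The array values of grl-7, which encodes a protein of the cuticle's precursor matrix, were 6.16, 6.25 and 7.41 on osm-8 arrays, 8.21, 8.86 and 9.06 on dpy-9 arrays and 8.20, 8.74 and 8.86 on dpy-10 arrays, against 3.32, 3.26 and 3.67 in N2. They correspond to log2 fold changes of 3.19, 5.29 and 5.18 (SE 0.29, adjusted p = 1.59e-07, 1.24e-10 and 1.53e-10). A second grl-7 probe set gave 3.34, 5.71 and 5.61. For grl-5 the osm-8 arrays were the most spread, at 6.69, 5.77 and 7.79, beside 9.15, 9.80 and 9.71 on dpy-9 arrays and 9.18, 10.39 and 9.19 on dpy-10 arrays, against 4.47, 4.30 and 4.19 in N2. The corresponding changes were 2.43, 5.23 and 5.27 (SE 0.39, adjusted p = 8.6e-05, 5.26e-09 and 4.17e-09), and even the lowest osm-8 array exceeded every N2 array.

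The gene grl-4 differed from these in that every mutant was above N2. It gave 7.93, 8.44 and 8.36 on osm-7 arrays, 8.32, 8.39 and 8.14 on osm-8 arrays, 7.58, 7.70 and 7.69 on osm-11 arrays, 11.01, 10.77 and 11.01 on dpy-9 arrays and 10.21, 9.38 and 10.12 on dpy-10 arrays, against 6.92, 6.69 and 6.12 in N2. The log2 fold changes were 1.67 in osm-7 (adjusted p = 6.31e-05), 1.71 in osm-8, 1.08 in osm-11 (passed the test, under 3-fold), 4.35 in dpy-9 (SE 0.22, adjusted p = 6.25e-11) and 3.33 in dpy-10. The calls in osm-7 and osm-8 were close to the 3-fold limit. Without N2 isotonic replicate 3 the values were 1.44 in osm-7 and 1.48 in osm-8, and without osm-7 replicate 2 the osm-7 value was 1.57, all under 3-fold.

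Other ground-like genes rose too. The gene grl-16 was called in osm-8 (2.8), dpy-9 (5.04) and dpy-10 (3.96), whereas grl-10 (2.22 in dpy-9, 2.12 in dpy-10) and grl-22 (3.91 and 2.8) were called in the dpy mutants alone among the 5 strains. In osm-8, grl-22 was at 3.0, 3.08 and 3.47, against 2.97, 2.94 and 3.24 in N2, so its osm-8 and N2 arrays overlapped. The tested genes grl-9, grl-25, grl-27 and grl-29 were called nowhere, with the largest of their mutant values at 0.89 (grl-27 in dpy-9, adjusted p = 0.0267).

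Of the groundhog genes, grd-14 and grd-5 rose and the others behaved differently. The grd-14 values were 9.29, 9.18 and 9.42 on osm-8 arrays, 11.67, 11.69 and 11.34 on dpy-9 arrays and 10.76, 10.60 and 11.08 on dpy-10 arrays, against 5.41, 5.20 and 4.82 in N2. Its log2 fold change was 4.15 for osm-8, 6.42 for dpy-9 and 5.67 for dpy-10 (SE 0.37, adjusted p = 1.32e-07, 2.41e-10 and 9.42e-10), and osm-7 and osm-11 arrays, between 4.20 and 5.88, overlapped those of N2. For grd-5 the change was 1.68 for osm-8, 3.87 for dpy-9 and 3.0 for dpy-10, while without N2 isotonic replicate 3 the osm-8 value was 1.54, under 3-fold. The gene grd-10 was called higher in osm-8 at 1.79 (1.58 without N2 isotonic replicate 1), passed the test as lower in osm-11 at -1.15 (adjusted p = 0.00309) and was at 0.35 in dpy-9 (adjusted p = 0.206). The gene grd-3 passed the test as lower in dpy-9, with 7.66, 7.95 and 7.95, against 8.99, 8.83 and 9.12 in N2 (-1.13 ± 0.16, adjusted p = 1.29e-05), and it was at 0.08 in osm-8 and -0.20 in dpy-10. The gene grd-1 passed the test in dpy-9 at 1.03, still near the background, and grd-16 passed in no mutant.

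The hog domain gene hog-1 and the quahog gene qua-1, which is required for molting, were near the background in N2. The hog-1 values were 4.69, 4.13 and 3.99 on osm-8 arrays, 7.03, 6.74 and 7.47 on dpy-9 arrays and 5.68, 6.80 and 6.27 on dpy-10 arrays, against 2.49, 2.47 and 2.54 in N2. It rose by 1.77 in osm-8 (1.56 without osm-8 replicate 1, under 3-fold), 4.58 in dpy-9 and 3.75 in dpy-10 (log2, SE 0.24, adjusted p = 2.08e-05, 9.72e-11 and 9.66e-10). The qua-1 values were 5.55, 5.06 and 6.14 on dpy-9 arrays and 6.01, 6.45 and 5.69 on dpy-10 arrays, against 2.27, 2.25 and 2.65 in N2. Here the rise was 3.19 and 3.66 (SE 0.23, adjusted p = 4.47e-09 and 7.32e-10), and the osm-8 arrays, at 3.19, 2.93 and 2.71, gave 0.56 (adjusted p = 0.0533).

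**Figure D3:**
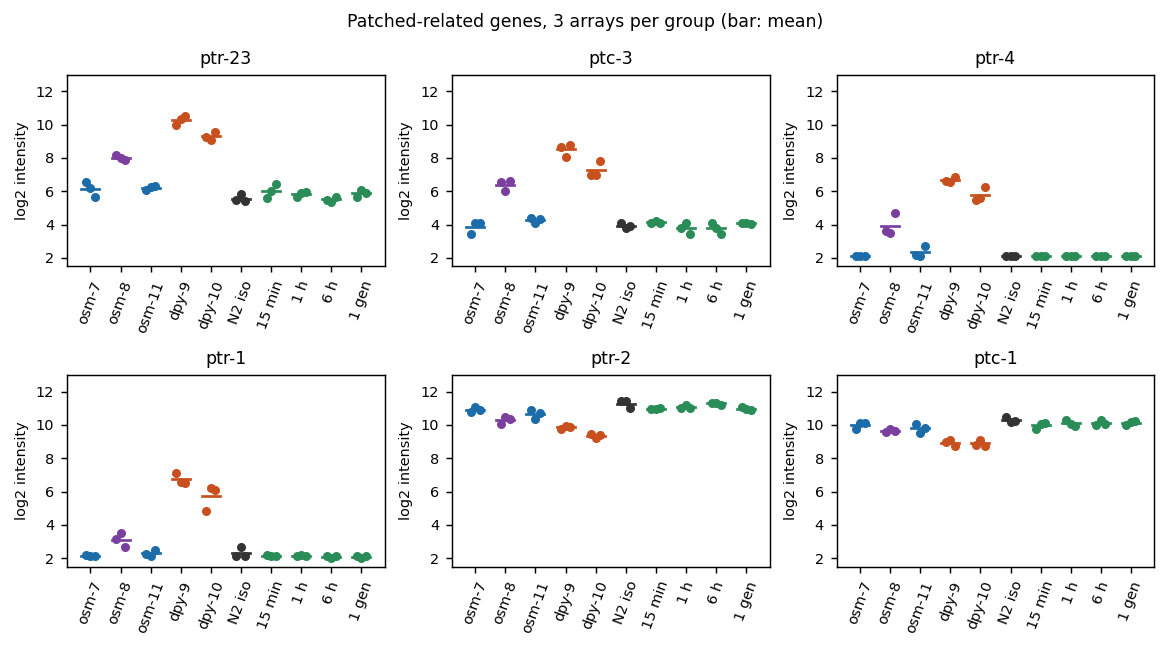
Log2 intensity (y axis) of 6 receptor-like genes on each of the 30 arrays, by group (x axis), with points for arrays and bars for group means. For ptr-23, ptc-3, ptr-4 and ptr-1 the dpy-9 and dpy-10 points lie above those of all other strains, and for ptr-2 and ptc-1 they lie below.

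Among the receptor-like genes, ptr-23 had 4 tested probe sets, all called higher in osm-8, dpy-9 and dpy-10. The brightest of them read 8.18, 7.98 and 7.89 on osm-8 arrays, 9.997, 10.35 and 10.51 on dpy-9 arrays and 9.26, 9.05 and 9.56 on dpy-10 arrays, against 5.49, 5.81 and 5.40 in N2. Its log2 fold change was 2.45, 4.72 and 3.72 (SE 0.21, adjusted p = 9.78e-08, 1.17e-11 and 2e-10), and over the 4 probe sets the changes ranged from 1.63 to 2.58 in osm-8, from 4.31 to 5.09 in dpy-9 and from 3.45 to 4.04 in dpy-10. The 4 probe sets thus gave the same direction and the same order of strains. One of them (1.63 in osm-8) lost its osm-8 call when any of the 3 N2 isotonic arrays, or osm-8 replicate 1 or 2, was left out, at values of 1.39 to 1.73 and adjusted p-values of 0.011 to 0.0296.

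The patched gene ptc-3, required for growth and molting, read 6.56, 6.02 and 6.62 on osm-8 arrays, 8.64, 8.08 and 8.80 on dpy-9 arrays and 6.95, 6.95 and 7.84 on dpy-10 arrays, against 4.10, 3.79 and 3.91 in N2. The log2 fold changes were 2.47, 4.57 and 3.31 (SE 0.26, adjusted p = 1.11e-06, 2.41e-10 and 1.02e-08). The patched-related genes ptr-4 and ptr-1 were at the background in N2. The ptr-4 values were 3.60, 3.51 and 4.67 on osm-8 arrays, 6.62, 6.56 and 6.87 on dpy-9 arrays and 5.49, 5.59 and 6.24 on dpy-10 arrays, against 2.13, 2.12 and 2.14 in N2, with changes of 1.80, 4.55 and 3.64 (SE 0.26, adjusted p = 4.07e-05, 2.82e-10 and 3.74e-09). The osm-8 call of ptr-4 was lost without osm-8 replicate 3, its highest array (1.42). Its second probe set was called in no strain, with 2.98, 5.17 and 4.88 on dpy-9 arrays and 2.81, 5.03 and 5.51 on dpy-10 arrays, against 2.78, 2.77 and 3.01 in N2. On that probe set 1 array of each dpy strain was at the N2 level, and without it the change was called, at 2.18 in dpy-9 and 2.42 in dpy-10.

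For ptr-1 the values were 7.10, 6.60 and 6.54 on dpy-9 arrays and 4.83, 6.24 and 6.09 on dpy-10 arrays, against 2.15, 2.65 and 2.16 in N2. This gave 4.42 and 3.40 (SE 0.30, adjusted p = 1.98e-09 and 3.93e-08), whereas the osm-8 arrays (3.13, 3.51 and 2.70) gave 0.79 (adjusted p = 0.0356), and their groups did not overlap. Of the other patched-related genes, ptr-8 was called in osm-8 (2.16), dpy-9 (2.83) and dpy-10 (3.22), and so was ptr-18 (1.65, 4.26 and 3.31), whose osm-8 value was 1.55 without osm-8 replicate 2 and 1.42 without replicate 3. Genes called in both dpy strains and not in osm-8 were ptr-6 (2.54 and 2.54), ptr-11 (3.79 and 3.09), ptr-14 (3.09 and 2.82), ptr-20 (2.97 and 2.28), ptr-22 (3.12 and 2.42) and ptr-24 (1.73 and 1.93), the values being those of dpy-9 and then dpy-10. Without N2 isotonic replicate 3, which was low at 2.42 beside 4.60 and 4.54, ptr-20 gave 1.56 in dpy-10, under 3-fold. The gene ptr-16 was called in dpy-9 (1.67, and 1.55 without dpy-9 replicate 3) and reached 1.35 in dpy-10. The second probe set of ptr-11 was called in dpy-9 at 1.72, and without dpy-9 replicate 1 (1.58) or replicate 2 (1.3) it was not. In osm-8, ptr-11 (1.39) and ptr-14 (1.11) were over 3-fold only without osm-8 replicate 1 (1.93 and 1.66).

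Both receptor-like genes that went down were well above the background in N2. For ptr-2 the values were 10.08, 10.49 and 10.37 on osm-8 arrays, 9.76, 9.93 and 9.86 on dpy-9 arrays and 9.43, 9.20 and 9.37 on dpy-10 arrays, against 11.41, 11.43 and 10.99 in N2. It was called lower in dpy-10 (-1.95 ± 0.16, adjusted p = 2.15e-08) and passed the test as lower in dpy-9 (-1.43) and osm-8 (-0.96). A second ptr-2 probe set gave -2.68 in dpy-10, with 1 of the 3 arrays (5.65) well below the others (7.35 and 7.67). In dpy-9 it was at -1.40, and at -1.63 without N2 isotonic replicate 3, which passes 3-fold. The gene ptc-1, a patched homolog required for cytokinesis in the germline, read 8.99, 9.08 and 8.74 on dpy-9 arrays and 8.78, 9.12 and 8.76 on dpy-10 arrays, against 10.48, 10.17 and 10.23 in N2. It passed the test at -1.35 and -1.41 (SE 0.17, adjusted p = 2.33e-06 and 1.3e-06), and its second probe set was called lower, at -1.94 in dpy-9 and -2.50 in dpy-10. In osm-8 the 2 probe sets of ptc-1 passed at -0.64 and -1.28, and the second of them also passed as lower in osm-7 (-0.63, adjusted p = 0.00282) and osm-11 (-0.96, adjusted p = 3.96e-05). For ptc-1 the arrays of every mutant were separate from those of N2. For ptr-2 the same held except in osm-7, whose arrays overlapped with N2 on both tested probe sets. The osm-7 changes of ptr-2 were -0.37 and -0.34 and did not pass the test (adjusted p = 0.141 and 0.589). The tested gene ptr-25 passed in no mutant against N2.

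**Figure D4:**
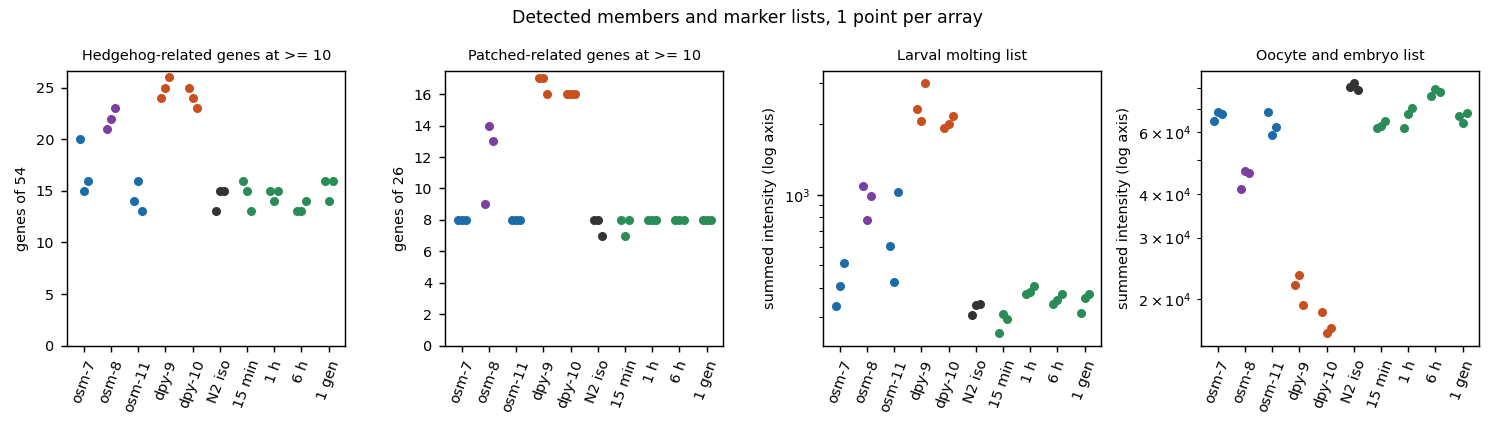
Ligand-like and receptor-like genes at an intensity of 10 or more (number of genes, left panels) and summed intensity of the larval molting and of the oocyte and embryo lists (log axes, right panels), with 1 point per array and groups on the x axis. The dpy-9 and dpy-10 arrays stand highest in the first 3 panels and lowest in the last, with osm-8 between them and N2 in the summed lists.

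Markers of several other tissues and stages moved in the same strains, and some of them to a smaller extent in osm-7 and osm-11. In whole worms, fewer cells of a type and less RNA per cell cannot be told apart. The larval molting list (mlt-8 to mlt-11, nhr-23, noah-1, noah-2, nas-36, nas-37, bli-5 and fbn-1) had 10 of 11 genes tested, of which 6 were called higher in osm-8, 8 for dpy-9 and 7 in dpy-10, with 2 in osm-7 and 3 in osm-11, and 1 lower in dpy-9. The gene called lower was nhr-23 (-2.59), which also passed the test as lower in dpy-10 (-1.49, adjusted p = 0.00495). It was the brightest gene of the list in N2 (mean log2 intensity 7.44) and weighed most in the N2 sum. The summed intensity of the list ranged from 335 to 513 in osm-7, 780 to 1090 in osm-8, 423 to 1030 in osm-11, 2060 to 2990 in dpy-9 and 1930 to 2170 in dpy-10, against 308 to 343 in N2, where mlt-9, noah-2, nas-36, bli-5 and fbn-1 were under 10 on all 3 arrays. All 9 genes of the oocyte and embryo list passed the test as lower in osm-8, dpy-9 and dpy-10, and 8 were called in dpy-9 and 9 in dpy-10. Its sum was 64700 to 68400 in osm-7, 41200 to 46500 in osm-8, 58900 to 68700 in osm-11, 19300 to 23500 in dpy-9 and 16000 to 18400 in dpy-10, against 79000 to 82800 in N2, and 1 of its genes passed as lower in osm-7 and 2 in osm-11.

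The sperm list had 3 of 8 genes tested, and all 3 were called higher in osm-8, dpy-9 and dpy-10, with sums of 776 to 931, 2110 to 2550 and 2050 to 2330, against 45.2 to 55.7 in N2, although spe-9, fer-1 and spe-38 were under 10 in all 4 groups. Vitellogenins summed to 127000 to 139000 in osm-8, 46400 to 74700 in dpy-9 and 92500 to 99400 in dpy-10, against 172000 to 186000 in N2. Muscle genes were called in 4 of 4 tested in each dpy strain (sums 11700 to 15400 and 13400 to 15100, against 3430 to 3600 in N2) and 2 of 4 in osm-8 (8500 to 9750). None was called in osm-7 (5840 to 7760) or osm-11 (4200 to 7210), where 2 and 1 passed as higher. Of 8 tested epidermal genes 4 were called higher in osm-8 and 3 in each dpy strain, while the sums of that list overlapped (4580 to 5340 in osm-8, 4780 to 5470 in dpy-9 and 5270 to 5900 in dpy-10, against 4280 to 5340 in N2). Of the same list, lin-26 passed as lower in dpy-9 (-0.93) and dpy-10 (-1.44), and col-19 passed as lower in dpy-9 (-0.79). In osm-11 the epidermal gene elt-3 was called higher (1.64). Of 5 intestinal genes 1 was called higher in osm-8 and 2 in each dpy strain, and of 7 glial genes 2 were tested and none was called. The sums of a neuron list overlapped those of N2, with 2170 to 2400 in osm-8, 2550 to 2690 in dpy-9 and 2100 to 2360 in dpy-10, against 2310 to 2580. The part of these lists in the members' changes was not tested.

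Strains were also compared with each other, since a call in one strain and none in another does not show a difference. In the mean of dpy-9 and dpy-10 against the mean of osm-7 and osm-11, where the N2 arrays cancel, 16 ligand-like and 15 receptor-like probe sets were higher by the call rule and 1 (ptr-2) lower, with 12% and 4.42% of all tested probe sets called in each direction. The differences were 7.60 for wrt-4, 6.44 for grl-21, 6.24 for grd-14, 5.89 for grl-15, 5.60 for grl-5 and 5.38 for grl-7, and 4.0 for ptr-1, 3.99 for ptr-4, 3.80 for ptc-3 and 3.60 for ptr-23. Adjusted p-values of these 10 genes were at most 5.25e-11 (the ptr-1 value). The gene grl-4, up in every mutant, was also higher in the dpy pair than in osm-7 and osm-11, by 2.47 (adjusted p = 5.76e-10), whereas wrt-10 differed by 0.76 (adjusted p = 0.048), outside the threshold. The lower call of ptr-2 (second probe set, -1.60) was lost without dpy-10 replicate 2 (-1.29), dpy-9 replicate 1 (-1.54) or osm-7 replicate 3 (-1.58). The second probe set of ptr-11 (1.75) fell under 3-fold without dpy-9 replicate 2 (1.54), whereas grd-10 (1.5), ptr-16 (1.51) and the second probe set of ptr-4 (1.57) crossed it without 1 array, dpy-10 replicate 2 (1.63), dpy-9 replicate 1 (1.59) and dpy-9 or dpy-10 replicate 1 (1.91 and 1.98).

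In osm-8 against osm-7 and osm-11, 12 ligand-like and 6 receptor-like probe sets were called higher and none lower, with 4.58% and 0.94% of all tested probe sets called in each direction. The largest of these were grl-21 (4.44), grl-15 (4.40), grd-14 (4.34) and wrt-4 (4.22), then grl-7 (3.34), grl-5 (2.78), grd-10 (2.46), ptc-3 (2.32), ptr-23 (1.83) and ptr-4 (1.69, and 1.32 without osm-8 replicate 3). Without osm-8 replicate 1, hog-1 (1.74) was at 1.53 and lost its call, and ptr-18 (1.51), ptr-11 (1.42) and ptr-14 (1.06) gained one at 1.85, 1.95 and 1.61. A second ptr-23 probe set (1.68) lost its call without osm-7 replicate 1 (1.56), osm-11 replicate 2 (1.58) or osm-8 replicate 2 (1.34). The osm mutants thus did not form a uniform group for these genes: osm-8 differed from osm-7 and osm-11 by the test. Neither grl-4 (0.33, adjusted p = 0.208) nor wrt-10 (0.77, adjusted p = 0.161) passed.

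In N2 worms on hypertonic plates few members were called, as were few of all tested probe sets, and the 2 calls were of groundhog genes. After 15 min 2 ligand-like probe sets, grd-10 and grd-3, were called higher, where 1.31% of all tested probe sets were called higher and 0.279% lower. No member was called after 1 h, 6 h or 1 generation, where 0.999%, 0.712% and 0.984% of all tested were called higher and 0.169%, 0.676% and 0.228% lower. At an adjusted p of 0.01 and any fold, 5 ligand-like probe sets were higher and 1 lower after 15 min, where 5.98% and 6.38% of all tested were. After 1 h 4 were higher (4.96% and 2.17% of all tested higher and lower), after 6 h none was (3.97% and 1.86%), and after 1 generation 4 were higher (5.89% and 1.98%). Of the receptor-like probe sets 1, 1, 1 and 3 were higher over these 4 exposures and none lower. The median log2 fold change lay between -0.05 and 0.03 for the ligand-like, between -0.01 and 0.0 for the receptor-like and between -0.07 and -0.01 for all tested probe sets.

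**Figure D5:**
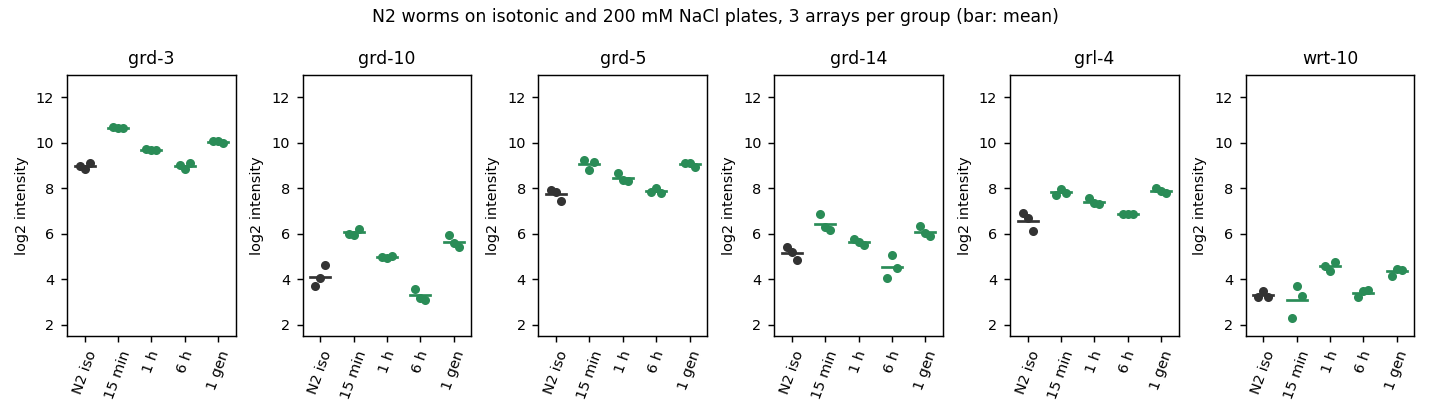
Log2 intensity (y axis) of grd-3, grd-10, grd-5, grd-14, grl-4 and wrt-10 in N2 worms on isotonic plates and at 4 exposures to 200 mM NaCl, of 15 min to 1 generation (x axis), with points for arrays and bars for group means. The first 5 genes are higher after 15 min and 1 generation than after 6 h, when their means lie between 0.83 below and 0.30 above the isotonic mean, and wrt-10 is highest after 1 h.

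For grd-3 the isotonic arrays were at 8.99, 8.83 and 9.12, and the hypertonic arrays at 10.68, 10.64 and 10.63 at 15 min, 9.73, 9.68 and 9.69 at 1 h, 9.01, 8.85 and 9.12 at 6 h and 10.08, 10.08 and 9.996 at 1 generation. For grd-10 the isotonic arrays were at 3.69, 4.04 and 4.61, and the hypertonic arrays at 6.00, 5.96 and 6.21 at 15 min, 4.96, 4.93 and 5.00 at 1 h, 3.57, 3.18 and 3.09 at 6 h and 5.93, 5.61 and 5.42 at 1 generation. Both genes were thus up early, at or below the isotonic level after 6 h, and up again in worms raised for 1 generation on the plates. The methods moved young adults to hypertonic plates for the shorter exposures and placed L1 larvae on them for 1 generation. Since 1 N2 isotonic group served all exposures, worm age and handling cannot be told apart from exposure. In the annotation grd-3 and grd-10 lie in 1 cluster with grd-13, which was not measured by a probe set of its own. The log2 fold change of grd-3 was 1.67 after 15 min (SE 0.08, adjusted p = 1.22e-07), 0.72 after 1 h (adjusted p = 0.000119), 0.01 after 6 h (adjusted p = 0.981) and 1.07 after 1 generation (adjusted p = 4.28e-06). That of grd-10 was 1.94 (SE 0.20, adjusted p = 4.02e-05), 0.85 (adjusted p = 0.0151), -0.83 (adjusted p = 0.0212) and 1.54 (adjusted p = 0.000284). The 15 min value of grd-10 was 0.99 with 32 added to the intensities, and its value after 1 generation crossed 3-fold without N2 isotonic replicate 3 (1.79) or 1 generation replicate 3 (1.66).

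The genes grd-5, grd-14 and grl-4 followed the same course at smaller size. After 15 min they passed the test at 1.33, 1.29 and 1.25, and after 6 h none did (0.15, -0.61 and 0.30, adjusted p = 0.622, 0.183 and 0.348). After 1 generation grd-5 (1.33) and grl-4 (1.31) passed and grd-14 (0.95, adjusted p = 0.0241) did not. The differences between exposures were then tested, a choice made after these values were seen. After 6 h against 15 min, grd-10 (-2.77), grd-14 (-1.90) and grd-3 (-1.66) were called lower and grd-5 (-1.17) and grl-4 (-0.95) passed as lower, where 1.25% of all tested probe sets were called lower and 3.97% passed as lower. After 1 generation against 6 h, grd-10 (2.37) was called higher, where 0.815% of all tested were (3.1% passed as higher), and grd-14 (1.56), grd-5 (1.17), grd-3 (1.06) and grl-4 (1.02) passed as higher. Since these 2 contrasts share the 6 h arrays, they are not independent. The grd-14 value was over 3-fold without 1 generation replicate 2 (1.59) or replicate 3 (1.65) or 6 h replicate 2 (1.82).

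Some tissue marker lists took a like course over the series, and others did not. The epidermis list, whose sum is mostly the adult collagen gene col-19, had sums of 4280 to 5340 on isotonic plates, 7260 to 7690 after 15 min, 6420 to 7430 after 1 h, 3160 to 3370 after 6 h and 6520 to 7990 after 1 generation, with dpy-7 under 10 throughout. Within it col-19 passed as lower after 6 h (-0.74), whereas elt-3 was at 0.84 there (adjusted p = 0.0199) and lin-26 at -0.02. The muscle list summed to 3430 to 3600 on isotonic plates, 5360 to 6800 after 15 min, 6400 to 6500 after 1 h, 3350 to 3710 after 6 h and 5550 to 6600 after 1 generation. The sperm list summed to 45.2 to 55.7 on isotonic plates, 157 to 165 after 15 min, 82.8 to 112 after 1 h, 40.2 to 41.7 after 6 h and 76.8 to 113 after 1 generation. The oocyte and embryo list went the other way, with 79000 to 82800 on isotonic plates, 61600 to 64500 after 15 min, 61500 to 70100 after 1 h, 76000 to 79900 after 6 h and 63900 to 68000 after 1 generation. The intestine list was highest after 6 h, with 26200 to 27500 on isotonic plates, 30600 to 33900 after 15 min, 29800 to 32400 after 1 h, 34200 to 37100 after 6 h and 30100 to 32900 after 1 generation. The larval molting list had 308 to 343 on isotonic plates, 257 to 310 after 15 min, 379 to 410 after 1 h, 341 to 377 after 6 h and 313 to 379 after 1 generation. No gene of the epidermis, muscle, intestine or oocyte and embryo lists was called in the 4 exposures, 2 and 1 of the 3 tested sperm genes were called higher after 15 min and 1 h, and 2 larval molting genes after 1 h, and the part of these lists in the groundhog changes was not tested.

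Outside that group, wrt-10 passed the test after 1 h at 1.26 (adjusted p = 0.00752), with 4.60, 4.34 and 4.77 at 1 h, against 3.21, 3.49 and 3.23 on isotonic plates, and it was at 1.03 after 1 generation (adjusted p = 0.0216). The gene ptr-24, whose product has been linked to fat metabolism with GRL-21, passed after 15 min (0.69), 6 h (0.69) and 1 generation (0.71). The other receptor-like gene to pass was ptr-23, by dim probe sets with N2 isotonic means under 4: 1 passed after 1 h (0.59, adjusted p = 0.00496) and after 1 generation (0.54), and another after 1 generation (0.82, adjusted p = 0.00842). The probe set of grl-5 passed as lower after 15 min (-0.47, adjusted p = 0.00675) at levels near the background. Of the 6 ligand-like and 4 receptor-like genes with the largest changes in the mutants, grd-14 and grl-5 thus passed the test after 15 min, and the other 8 did not pass at any exposure by their brightest probe sets. Among these 8, wrt-4 was at values of -0.05 to 0.12, grl-21 of -0.39 to 0.18, grl-15 of -0.07 to -0.05, and the brightest ptr-23 probe set of -0.05 to 0.45.

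Of 17 other genes of the pathway that are no members by name, 13 were tested, and in the N2 series none was called (1 passed as lower after 15 min, scp-1, which encodes a sterol-sensing domain protein, and 1 after 1 generation, the exostosin homolog gene rib-1). In the dpy mutants the genes called higher were lrp-1, a megalin homolog required for molting (2.74 in dpy-9, 2.10 in dpy-10), che-14, a homolog of the ligand-releasing protein Dispatched (1.69 and 1.71), and in dpy-10 ncr-1, a homolog of the sterol transporter NPC1 (1.62, and 1.41 in dpy-9). None was called lower. The Gli homolog gene tra-1, known for its role in sex determination, was at -0.66 in dpy-9 and -0.51 in dpy-10 (adjusted p = 0.0151 and 0.0511) and -0.47 in osm-8 (adjusted p = 0.087). In osm-8 none was called, with lrp-1 passing as higher at 1.44 and rib-1 as lower at -0.72. Thus 3 of the 13 tested genes were called in a dpy strain, and 10 were not.

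The members that were not tested comprised 33 ligand-like probe sets, among them every probe set of 28 genes, and 11 receptor-like probe sets with every probe set of 10 genes. Their highest intensities on any array lay between 4.08 and 13.4 for the ligand-like and between 4.92 and 21.2 for the receptor-like probe sets, so that 26 and 10 of them reached 10 on no array. The genes were grd-2, grd-7, grd-8, grd-9, grd-11 and grd-12, wrt-3, wrt-7, wrt-8 and wrt-9, 18 grl genes, and ptr-3, ptr-5, ptr-9, ptr-10, ptr-12, ptr-13, ptr-15, ptr-17, ptr-19 and ptr-21. When all 22548 probe sets other than controls were tested, the 60 ligand-like probe sets held 17 higher calls in dpy-9, 18 in dpy-10 and 16 in osm-8, and the 35 receptor-like ones 19, 17 and 7, where 9.83%, 11.1% and 4.81% of all these probe sets were called higher. Over all 9 comparisons 33 of the 42 tested genes were called at least once, 19 ligand-like and 14 receptor-like, where 34.6% of all 10169 tested genes were. This contrast is in part fixed by the filter. Only through arrays of osm-8, dpy-9 or dpy-10 did 41.2% of the tested member probe sets pass it, against 10.1% of all tested.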

How the data were processed

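The authors prepared total RNA of whole sorted worms (for each time point the 3 of 5 preparations with the best RNA quality were used), hybridized it to Affymetrix *C. elegans* arrays and applied GC-RMA to them with the Partek Genomics Suite (versions and annotation build are not given in the sources used here). The deposited values are linear intensities, 1 per probe set and array, in a table of 22625 probe sets and 30 arrays, and their log2 was taken here. Genes were named through the platform annotation: 20766 probe sets had 1 gene, 887 several and 895 no named gene. Present calls, which the methods used with SAM at an FDR of 1% and 3-fold, were replaced by an intensity of at least 10 on at least 3 of 30 arrays, and SAM by limma 3.58.1 in R 4.3.3 (lmFit and eBayes, Benjamini-Hochberg adjustment over the 13617 probe sets tested, two-sided), with 1 fit over the 15 arrays of the N2 series and 1 over the 18 isotonic arrays. Calls needed an adjusted p no higher than 0.01 and a 3-fold or larger change. SE is the moderated standard error of a contrast. Tables were made in Python 3.11.15 (pandas 2.3.3, numpy 2.4.6), and the fits were tested on simulated data. Known changes were placed there only in probe sets above the background in N2, so detection of changes in dim members was not tested.

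The members, gene lists and tests were chosen with earlier results of these data known. Genes given with array values were the 6 ligand-like and 4 receptor-like genes with the largest called changes in the mutants, those called in the N2 series, and the brightest member of each family; array values of hog-1, qua-1, wrt-10, grl-22 and ptr-20 and of the second probe sets of ptr-4 and ptr-2 were added after their values were seen. Alternatives covered the filter, scaling, log scale, arrays in the fit, variance prior, thresholds, probe set type, a replicate block and each array left out in turn.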

Additional observations from a re-analysis of the deposited data

Results flagged for a closer look

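Differences between strains that passed the test of the difference itself are listed here, with values as log2 differences. Between dpy-9 and dpy-10 on one side and osm-7 and osm-11 on the other, 32 member probe sets were called, and the named genes among them were wrt-4 (7.60), grl-21 (6.44), grd-14 (6.24), grl-15 (5.89), grl-5 (5.60), grl-7 (5.38), ptr-1 (4.0), ptr-4 (3.99), ptc-3 (3.80), ptr-23 (3.60) and grl-4 (2.47). Between osm-8 on one side and osm-7 and osm-11 on the other, 18 were called, and the named genes were grl-21 (4.44), grl-15 (4.40), grd-14 (4.34), wrt-4 (4.22), grl-7 (3.34), grl-5 (2.78), grd-10 (2.46), ptc-3 (2.32), ptr-23 (1.83) and ptr-4 (1.69).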

How the results depend on the processing

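Counts of members called by the settings of the report were 2 after 15 min, 0 after 1 h, 6 h and 1 generation, 36 in dpy-9, 38 in dpy-10, 24 in osm-8, 1 in osm-7, 1 in osm-11, 32 between the dpy pair and osm-7 with osm-11, and 18 between osm-8 and osm-7 with osm-11. Quantile normalization left 0 in osm-7 and removed calls in other strains too. In osm-8 these were grd-10 (1.4), wrt-2 (1.46), ptr-18 (1.46), hog-1 (1.57) and 1 ptr-23 probe set (1.43). In dpy-9 they were wrt-10 (1.55), ptr-16 (1.24) and the second ptr-11 probe set (1.23). In dpy-10 they were wrt-2 (1.57) and the second probe sets of ptr-11 (1.28) and ptr-6 (1.57). Both comparisons between mutants lost and gained calls. Median centring removed osm-8 calls of ptr-18 (1.58) and 1 ptr-23 probe set (1.56). With 32 added to each intensity the counts were 1 after 15 min, 22 in dpy-9, 20 in dpy-10, 7 in osm-8, 0 in osm-7, 0 in osm-11, and 18 and 7 in the comparisons between mutants. With probe sets of the suffix _x_at or _s_at left out, which can match several transcripts, they were 18 in dpy-9, 17 in dpy-10, 10 in osm-8, 0 in osm-7, 0 in osm-11, and 15 and 8, and here fewer members entered. Among genes given with array values, the brightest probe sets of wrt-2, wrt-4, wrt-10, grl-4, grl-5, grl-7, qua-1, ptc-3, ptr-2, ptr-4 and ptr-23 carry the suffix _s_at. With the filter on the arrays of N2, osm-7 and osm-11, chosen after seeing the data, they were 17 in dpy-9, 20 in dpy-10, and 14 and 11, again with fewer members. At any fold they were 7 after 15 min, 5 after 1 h, 1 after 6 h, 7 after 1 generation, 2 in osm-7 and 4 in osm-11, and at 2-fold 5 after 15 min, 1 after 1 h, 4 after 1 generation and 3 in osm-11. Leaving out 1 array at a time gave 2 after 15 min, 0 after 1 h and 6 h, 0 to 1 after 1 generation, 0 to 1 in osm-7, 21 to 24 in osm-8, 1 to 2 in osm-11 (ptr-20 was added at 1.72 without N2 isotonic replicate 1), 35 to 37 in dpy-9, 37 to 39 in dpy-10, and 31 to 33 and 17 to 20 between mutants. The replicate block gave 39 in dpy-10 and the same counts elsewhere. Replicate numbers do not pair the samples: same-numbered arrays correlated in their deviations at a mean r of -0.022 (mutants and N2, from -0.46 to 0.406) and 0.023 (N2 series, from -0.219 to 0.228). Of 275 values of 16 named genes under the alternatives, 269 kept direction and call, 4 lost the call (grd-10 after 15 min at 0.99, and wrt-2 in dpy-10 at 1.57, 1.21 and 1.54), 2 gained it through looser thresholds (ptc-1) and 0 reversed. Each gene was followed only in the comparison of its largest change, and most of these changes were far above 3-fold, so few calls could be lost. Calls of the same genes in other comparisons were not among the 275. With 32 added, ptr-4 (0.4), ptc-3 (1.31) and grl-5 (1.47) lost their osm-8 calls and grl-4 (1.39) its osm-7 call. For probe sets near the background, and with 3 arrays per group, signal and array number limit the precision.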
